A study of Homo sapiens with 6 samples.

Results

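Nucleotide synthesis enzymes are the 38 human genes listed here for the making of purine, pyrimidine and deoxynucleotides, found in the deposited table by their symbols. All 38 had a row among 17911 genes, and 37 passed the filter on low values, which asked that 3 or more libraries reach 1. The exception was CTPS2. RNA had been sequenced in 6 libraries of HL-60, an established human promyelocytic leukaemia cell line. In 3 libraries the cells had received 10 uM amiodarone, an antiarrhythmic drug and cationic amphiphilic compound, for 24 h. The other 3 are labelled control, without a statement on vehicle. In its title the series calls the drug a SIRT3 activator in acute myeloid leukaemia, SIRT3 being a mitochondrial deacetylase, and the comparison asks which transcripts differ after the drug. All libraries come from the same cell line, and separate cultures are not mentioned in the labels, so every p-value refers to a spread between libraries that may be technical.

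Cells obtain nucleotides by 2 kinds of route. De novo synthesis builds the pyrimidine ring from glutamine, bicarbonate and aspartate, and the purine ring stepwise on phosphoribosyl pyrophosphate (PRPP). Salvage returns free bases and nucleosides to the pool. Ribonucleotide reductase then converts ribonucleoside diphosphates to the deoxy forms, and thymidylate synthase makes the thymine nucleotide from dUMP. Dividing leukaemic cells draw on all of these, and several of the enzymes are drug targets in leukaemia.

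The values are RPKM-like (reads per kilobase and per unit of depth), so levels of different genes can be set side by side. Fold changes below are log2 fold changes on log2(value + 1), amiodarone minus control, with their standard error, tested with limma over 11445 genes, and a gene is called at an adjusted p under 0.05. Where a ratio of means is given, it is that of the deposited values. The spacing of low values gave an estimated depth in reads or read pairs a library, valid only if the unit is RPKM. It was 16200000 to 16400000 in the amiodarone libraries and 17800000 to 18200000 in the control libraries. In these bulk samples, fewer cells of a kind and less RNA per cell cannot be told apart.

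Transcripts of most enzymes were lower after amiodarone. Of the 37 tested, 31 were called lower, 2 were called higher and 4 were not called. Over all 11445 tested genes, 78.3% were called, 44.8% as lower and 33.5% as higher. The groups did not overlap in 34 of the 37 enzymes, and in 79.3% of all tested genes, so the separation of single enzymes is near the background. The median log2 fold change of the enzymes was -0.59, and that of all tested genes was -0.06. Called enzymes with a log2 fold change of -1 or below, which is at least 2-fold lower on that scale, numbered 6 of 37, against 2.6% of all tested genes. They were TK1, CAD, RRM2, TYMS, DTYMK and PFAS, which work in pyrimidine, deoxynucleotide and purine routes.

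**Figure D1:**
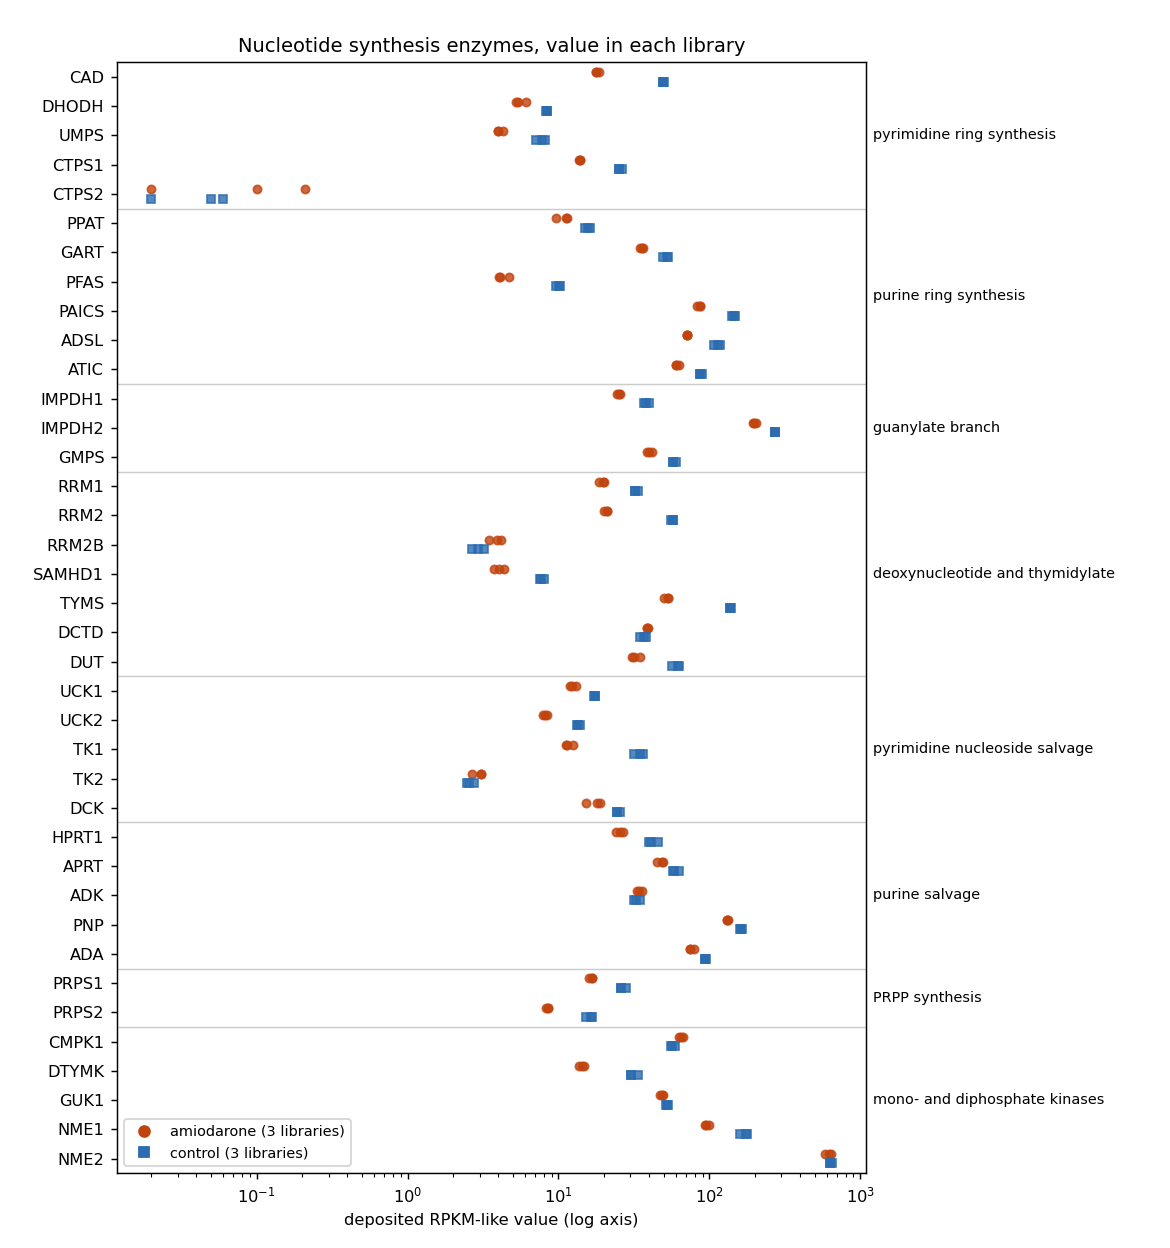
Deposited RPKM-like value (log axis) of each of the 38 enzymes in each library, with 3 amiodarone libraries as circles above 3 control libraries as squares, grouped by route. In most rows the circles lie left of the squares. CTPS2 lies at 0.21 or less in every library, and RRM2B and CMPK1 lie higher after amiodarone.

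Pyrimidine ring synthesis, grouped here with CTP synthase, had all 4 tested enzymes called lower, against 44.8% of all tested genes. The median log2 fold change of the 4 was -0.80. CAD is the trifunctional protein that carries out the opening steps of the pathway, from carbamoyl phosphate to dihydroorotate. It had values of 18.6, 17.6 and 17.7 in the amiodarone libraries, against 49.4, 50.4 and 49.3 in the control libraries. Every amiodarone library was far below every control library, and the spread within each group was small (log2 fold change -1.42, SE 0.0332, limma adjusted p = 4.68e-11). DHODH, the mitochondrial enzyme that oxidises dihydroorotate to orotate, averaged 5.58 ± 0.435 after amiodarone and 8.33 ± 0.0874 in controls (SD, n = 3 each), a log2 fold change of -0.51. UMPS, which turns orotate into UMP, averaged 4.10 ± 0.176 after amiodarone and 7.65 ± 0.48 in controls (SD, n = 3 each), a log2 fold change of -0.76. CTPS1, the CTP synthase that lymphoid proliferation is known to need, had values of 13.7, 13.8 and 13.9 after amiodarone, against 25.3, 26.4 and 25.1 in controls. Its log2 fold change was -0.85 (SE 0.036, limma adjusted p = 4.04e-09). The other CTP synthase gene, CTPS2, was listed at 0.21, 0.1 and 0.02 after amiodarone and at 0.05, 0.02 and 0.06 in controls. CTPS2 was thus barely detected in either group and was not tested, and nearly all CTP synthase transcript in these libraries was that of CTPS1.

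Purine ring synthesis and its guanylate branch were lower as well, with 9 of 9 tested enzymes called lower, against 44.8% of all tested genes. The median was -0.53, with a range of -1.05 to -0.45. PFAS, the FGAR amidotransferase that consumes glutamine in the middle of the pathway, had values of 4.05, 4.12 and 4.73 after amiodarone, against 9.67, 10.2 and 10.1 in controls. The groups lay well apart (log2 fold change -1.05, SE 0.0593, limma adjusted p = 3.51e-08). PAICS, a bifunctional enzyme of the same pathway, averaged 85.3 ± 1.88 after amiodarone and 145 ± 3.68 in controls (SD, n = 3 each; log2 fold change -0.76). PPAT, the amidotransferase of the committed step, had a smaller log2 fold change of -0.50 (SE 0.0612), with 10.8 ± 0.98 after amiodarone and 15.6 ± 0.687 in controls (SD, n = 3 each). PPAT and PAICS lie head to head on chromosome 4, with PPAT at 56393362 to 56435615 on the minus strand and PAICS at 56435741 to 56464579 on the plus strand (GENCODE 29, GRCh38). The trifunctional GART had a log2 fold change of -0.52. ATIC, which closes the ring to IMP, had one of -0.51. ADSL, which splits succinyl intermediates both in the ring pathway and on the way to AMP, had one of -0.67. The exons of ADSL share 18.9% of their bases with a second annotated coding gene, AL022238.4, on the same strand.

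In the guanylate branch IMPDH2, the IMP dehydrogenase isoform of proliferating cells, had the highest level of all 13 tested de novo enzymes. Its values were 196.5, 195 and 203 after amiodarone, against 272, 273 and 270.3 in controls. Its log2 fold change of -0.45 (SE 0.0235, limma adjusted p = 1.91e-08) was the smallest decrease among those 13. IMPDH1, the isoform known for its role in the retina, had values of 25.1, 25.5 and 24.5 after amiodarone, against 36.97, 39.5 and 38.3 in controls, a log2 fold change of -0.59. GMPS, which aminates XMP to GMP, averaged 40.0 ± 1.55 after amiodarone and 58.1 ± 1.43 in controls (SD, n = 3 each; log2 fold change -0.53). The groups did not overlap in any of the 9 purine enzymes, nor did they in 79.3% of all tested genes.

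Among the 7 enzymes of deoxynucleotide and thymidylate supply, 5 were called lower and 1 higher, against 44.8% and 33.5% of all tested genes. The median was -0.80, and the 5 include SAMHD1, which degrades dNTPs. RRM2, the small subunit of ribonucleotide reductase that is made in S phase, had values of 20.1, 20.9 and 21.0 after amiodarone, against 57.1, 55.2 and 57.1 in controls. All 3 amiodarone libraries were at little over a level of 20, well under the controls (log2 fold change -1.41, SE 0.0325, limma adjusted p = 4.45e-11). The exons of RRM2 share 20.2% of their bases with the annotated coding gene AC007240.1 on the same strand, and how reads in the shared part were counted is not given in the sources used here. RRM1, the large subunit, averaged 19.4 ± 0.775 after amiodarone and 32.7 ± 1.03 in controls (SD, n = 3 each; log2 fold change -0.72). RRM2B, the p53-inducible small subunit that serves DNA repair and mitochondrial DNA, moved the other way. Its values were 3.45, 4.18 and 3.93 after amiodarone, against 3.22, 2.67 and 2.92 in controls. The groups did not overlap but nearly touched, at 3.45 and 3.22, and the log2 fold change was 0.30 (SE 0.076, limma adjusted p = 0.00372). The transcript ratio of RRM2 to RRM1 was 1.08, 1.06 and 1.05 after amiodarone, against 1.68, 1.73 and 1.77 in controls. That of RRM2B to RRM1 was 0.186, 0.212 and 0.196 after amiodarone, against 0.095, 0.0835 and 0.0904 in controls.

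TYMS, thymidylate synthase and the target of fluorouracil, had values of 53.5, 53.2 and 49.8 after amiodarone, against 138, 138 and 138 in controls. The control libraries were nearly identical and the amiodarone libraries lay far below them (log2 fold change -1.39, SE 0.0312, limma adjusted p = 3.96e-11). TYMS shares 39.1% of its exonic bases with ENOSF1 on the opposite strand, and whether counting used strand is not given in the sources used here. ENOSF1 itself had values of 13.97, 14.2 and 15.7 after amiodarone, against 22.0, 24.1 and 22.3 in controls. DUT, the dUTPase that keeps uracil out of DNA and supplies dUMP, averaged 32.3 ± 2.00 after amiodarone and 60.2 ± 3.58 in controls (SD, n = 3 each; log2 fold change -0.88). DCTD, the dCMP deaminase that is the other source of dUMP, was not called. It had 38.5, 38.6 and 39.1 after amiodarone, against 37.98, 37.05 and 34.9 in controls (log2 fold change 0.08, limma adjusted p = 0.0626). SAMHD1, a triphosphohydrolase that degrades dNTPs and so acts against the other enzymes of this route, averaged 4.05 ± 0.325 after amiodarone and 7.75 ± 0.223 in controls (SD, n = 3 each). Its log2 fold change was -0.80 (SE 0.0593), so the enzyme of dNTP breakdown and the reductase subunits RRM1 and RRM2 were lower together.

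**Figure D2:**
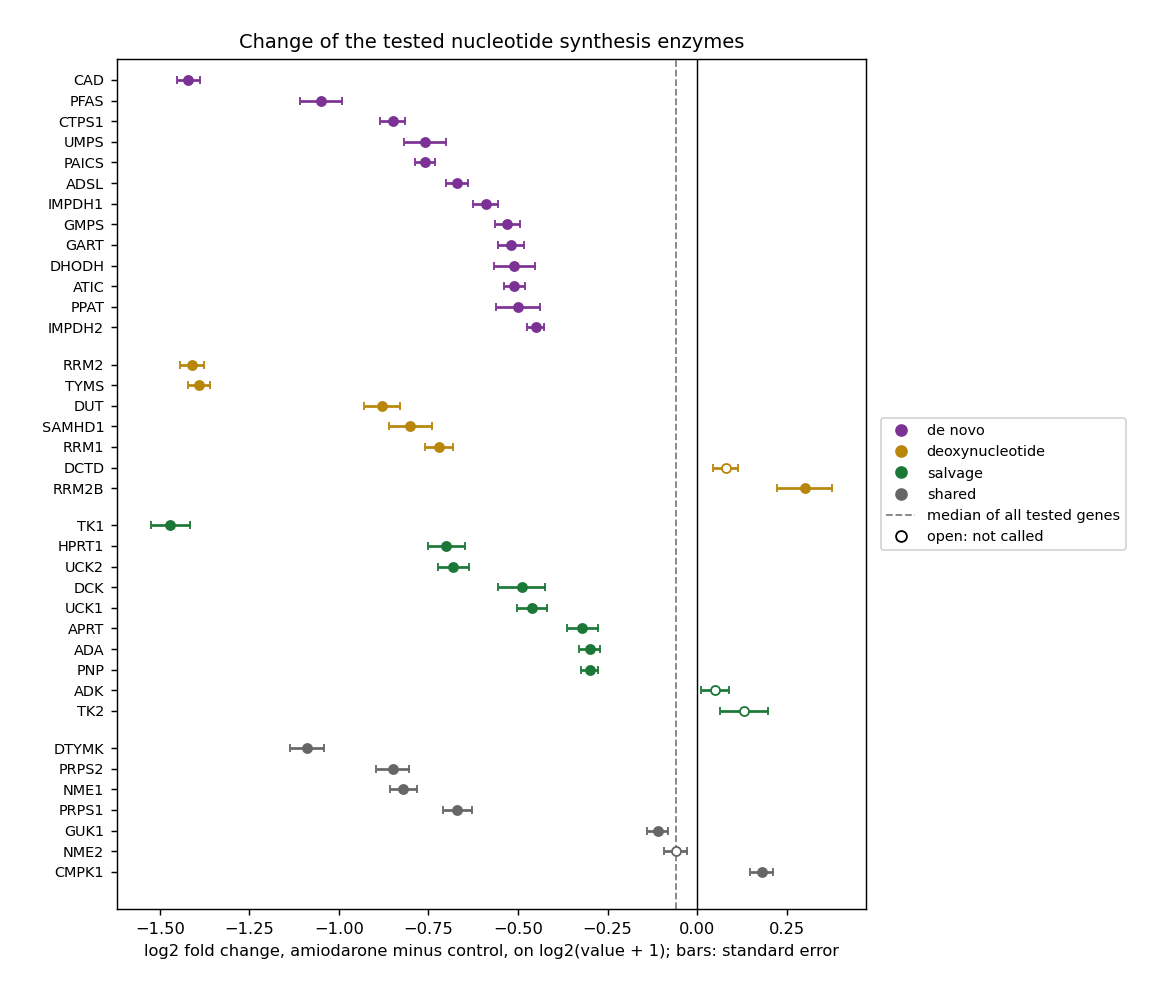
Log2 fold change (amiodarone minus control, on log2(value + 1)) of the 37 tested enzymes with its standard error, sorted within 4 classes. Filled points were called and open points were not, and the dashed line is the median of all tested genes at -0.06. All 13 de novo enzymes lie left of -0.4, while ADK, TK2, DCTD, RRM2B and CMPK1 lie right of 0.

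Among the 10 salvage enzymes of this list, 8 were called lower and 2 were not called, against 44.8% of all tested genes called lower. Their median was -0.39, with a range of -1.47 to 0.13. TK1, the cytosolic thymidine kinase of S phase, had values of 12.4, 11.2 and 11.3 after amiodarone, against 31.7, 36.1 and 34.5 in controls. Its log2 fold change of -1.47 (SE 0.0543, limma adjusted p = 1.44e-09) was the most negative of all 37 tested enzymes. TK2, the mitochondrial thymidine kinase, had 2.69, 3.07 and 3.09 after amiodarone, against 2.48, 2.76 and 2.56 in controls. The groups overlapped and TK2 was not called (log2 fold change 0.13, 95% interval -0.02 to 0.28, limma adjusted p = 0.0903). UCK2, a uridine-cytidine kinase, had 8.38, 8.13 and 7.90 after amiodarone, against 13.5, 13.4 and 13.9 in controls (log2 fold change -0.68). UCK1, which catalyses the same reaction, had 12.3, 13.0 and 11.9 after amiodarone, against 17.5, 17.3 and 17.4 in controls (log2 fold change -0.46). DCK, the kinase that activates cytarabine in leukaemia therapy, averaged 17.4 ± 1.94 after amiodarone and 24.8 ± 0.687 in controls (SD, n = 3 each), a log2 fold change of -0.49 with SE 0.0656.

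In purine salvage, HPRT1, which salvages hypoxanthine and guanine, averaged 25.6 ± 1.29 after amiodarone and 42.1 ± 2.88 in controls (SD, n = 3 each; log2 fold change -0.70). The remaining decreases were small. APRT, which salvages adenine, had a log2 fold change of -0.32 (SE 0.0444). PNP, the purine nucleoside phosphorylase, and ADA, the adenosine deaminase, each had one of -0.30. ADK, the adenosine kinase, had 34.0, 35.5 and 33.3 after amiodarone, against 34.5, 32.6 and 31.9 in controls. These values overlapped, and ADK was not called (log2 fold change 0.05, 95% interval -0.03 to 0.14, limma adjusted p = 0.218).

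The enzymes that serve both kinds of route moved unevenly. PRPS1 and PRPS2 make PRPP, which both the purine ring and base salvage consume. PRPS1 had values of 16.6, 16.7 and 16.02 after amiodarone, against 28.1, 25.9 and 26.1 in controls (log2 fold change -0.67, SE 0.0406). PRPS2 had 8.24, 8.59 and 8.51 after amiodarone, against 16.6, 16.4 and 15.1 in controls (log2 fold change -0.85, SE 0.0465). Both genes were lower, with no overlap between the groups, as in 79.3% of all tested genes. Of the 5 mono- and diphosphate kinases in this list, 3 were called lower and 1 higher, against 44.8% and 33.5% of all tested genes. Their median was -0.11. Among 8 tested adenylate and nucleoside diphosphate kinases of the wider list described below, 1 was called lower and 5 higher, with a median of 0.32. DTYMK, the thymidylate kinase, had 14.7, 14.2 and 13.7 after amiodarone, against 33.6, 30.2 and 30.2 in controls (log2 fold change -1.09, SE 0.0477, limma adjusted p = 5.02e-09). CMPK1, the kinase for UMP and CMP, was higher in all 3 amiodarone libraries, at 62.7, 65.1 and 66.8, against 58.9, 55.7 and 56.7 in controls. The rise was small, with a log2 fold change of 0.18 (SE 0.0332, limma adjusted p = 4.32e-04). GUK1, the guanylate kinase, averaged 48.3 ± 1.17 after amiodarone and 52.3 ± 0.84 in controls (SD, n = 3 each), a log2 fold change of -0.11.

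NME1 and NME2 are nucleoside diphosphate kinases encoded side by side on chromosome 17. NME1 had values of 95.2, 98.8 and 93.5 after amiodarone, against 178, 174 and 160.3 in controls (log2 fold change -0.82, SE 0.0381, limma adjusted p = 7.55e-09). NME2, at the highest level of all 38 enzymes, had 640.2, 617 and 580.3 after amiodarone, against 634, 633 and 646 in controls. The groups overlapped in NME2, which was not called (log2 fold change -0.06, 95% interval -0.13 to 0.01, limma adjusted p = 0.113). The read-through gene NME1-NME2 shares 18.6% of the exonic bases of NME1 and 22.9% of those of NME2. It was listed at 5.87, 4.38 and 7.88 after amiodarone, against 3.01, 2.57 and 3.50 in controls. How reads that fit several of these genes were counted is not given in the sources used here. The same doubt holds for 11 of the 38 enzymes that have at least 1 annotated pseudogene named after them in GENCODE 29, among them RRM2, TYMS, DUT, PAICS, HPRT1, PPAT and both NME genes.

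Set against each other, de novo enzymes were lower in 13 of 13 tested and salvage enzymes in 8 of 10, against 44.8% of all tested genes called lower. Their medians were -0.59 and -0.39. The salvage count covers these 10 enzymes only. Among 5 tested salvage enzymes of the wider list described below, 0 were called lower and 2 higher, against 44.8% and 33.5% of all tested genes. Their median was 0.09. The 2 called higher were CDA and UPP1. The classes overlapped, since TK1 of the salvage class fell more than any de novo enzyme, and the difference between the classes was not tested. Within salvage, the pyrimidine kinases had a median of -0.49 and the purine enzymes one of -0.30. Within de novo synthesis, the pyrimidine enzymes had a median of -0.80 and the purine enzymes with the guanylate branch one of -0.53. The medians of all classes move with the scaling of the libraries: de novo enzymes ranged from -0.68 with scaling to equal sums to -0.55 with scaling by the median of ratios. Salvage enzymes ranged from -0.48 to -0.35 under the same choices, and the median of all tested genes from -0.14 to -0.03.

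Ratios of enzymes with the same reaction do not depend on the scaling of a library. The RRM2 to RRM2B ratio was 5.83, 5.01 and 5.35 after amiodarone, against 17.7, 20.7 and 19.6 in controls. The TK1 to TK2 ratio was 4.62, 3.64 and 3.66 after amiodarone, against 12.8, 13.1 and 13.5 in controls. In both pairs the ratio was lower in every amiodarone library than in every control library, with a difference in log2 ratio of -1.84 for RRM2 to RRM2B and of -1.73 for TK1 to TK2. The NME1 to NME2 ratio was 0.149, 0.16 and 0.161 after amiodarone, against 0.281, 0.274 and 0.248 in controls, a difference of -0.77. The other pairs moved little. UCK2 to UCK1 averaged 0.657 after amiodarone and 0.781 in controls. PRPS1 to PRPS2 averaged 1.95 after amiodarone and 1.67 in controls, and IMPDH2 to IMPDH1 7.93 after amiodarone and 7.11 in controls. In these 6 pairs the groups did not overlap. Nor did they in 79.3% of all tested single genes, and the share among ratios of other gene pairs was not computed. Each of the 6 pairs had an exact two-sided permutation p of 0.1, the smallest that 3 against 3 libraries can give. After Benjamini-Hochberg adjustment over 7 pairs this permutation p was 0.117. For CTPS1 to CTPS2 the ratio overlapped between the groups (exact permutation p = 0.3), with CTPS2 too low to give a usable ratio.

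**Figure D3:**
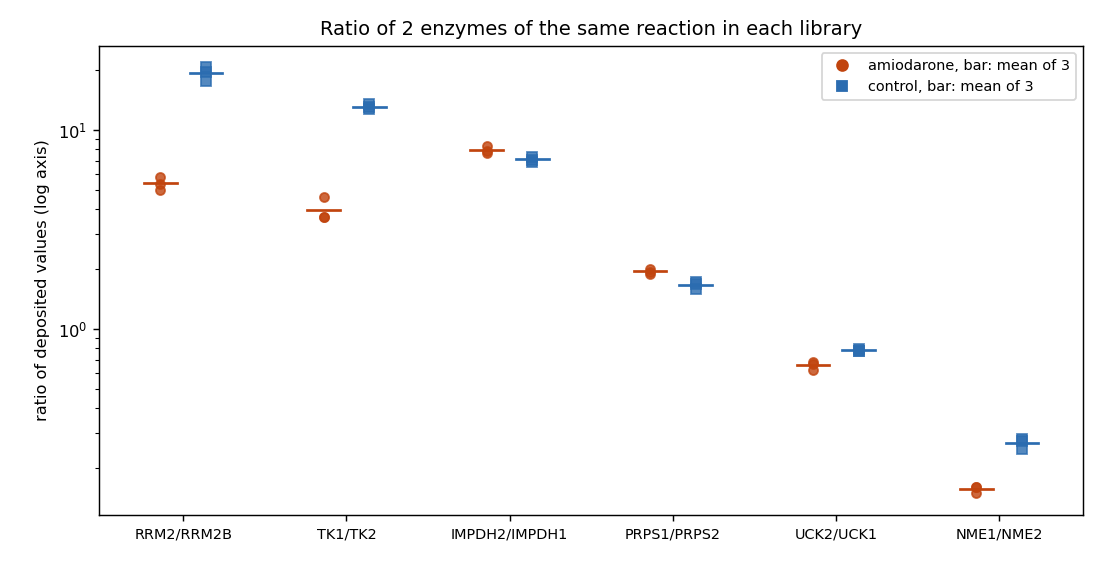
Ratio of the deposited values of 2 enzymes of the same reaction in each library (log axis), with amiodarone as circles left of control as squares and the mean of 3 libraries as a bar; CTPS1 to CTPS2 is left out because CTPS2 was barely detected. RRM2 to RRM2B and TK1 to TK2 lie far lower after amiodarone, and PRPS1 to PRPS2 and IMPDH2 to IMPDH1 slightly higher.

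Promoter windows of 250 bases before to 50 after the gene start were at hand for 35 of the 38 enzymes (RefSeq, GRCh38.p14); ADSL, IMPDH2 and RRM2B had none. The window of PAICS is placed 25234 bases upstream of the start that GENCODE 29 gives that gene, inside PPAT, so its lack of all 3 motifs does not bear on that start. The other 34 windows start within 2422 bases of the outermost GENCODE 29 start of their gene, that of RRM2 being 2041 bases downstream of it. They were searched on both strands for the E-box CACGTG, for E2F sites spelled TTTCCCGC, TTTCGCGC, TTTGCCGC or TTTGGCGC, and for the CCAAT box. The motifs do not overlap each other in the windows shown. The E-box was in 5 of 35 windows (14.3%, against 8.9% of 15843 windows of coding genes): ATIC, DCK, DHODH, NME1 and PPAT. An E2F site was in 3 (8.6%, against 4.4%), namely DCK, PRPS2 and TYMS, and a CCAAT box in 12 (34.3%, against 36.4%). A match is a run of letters, not a measured binding site. Printed here, in capitals where a motif matched, are the windows of the 2 most lowered deoxynucleotide enzymes, of PPAT, whose window takes in the start that GENCODE 29 gives PAICS, and of the neighbours NME1 and NME2, whose transcripts differed in their change. The positions are chr2:10122489-10122788, plus strand, for RRM2 and chr18:657403-657702, plus strand, for TYMS. They are chr4:56435566-56435865, minus strand, for PPAT, chr17:51153309-51153608, plus strand, for NME1 and chr17:51165286-51165585, plus strand, for NME2.
RRM2: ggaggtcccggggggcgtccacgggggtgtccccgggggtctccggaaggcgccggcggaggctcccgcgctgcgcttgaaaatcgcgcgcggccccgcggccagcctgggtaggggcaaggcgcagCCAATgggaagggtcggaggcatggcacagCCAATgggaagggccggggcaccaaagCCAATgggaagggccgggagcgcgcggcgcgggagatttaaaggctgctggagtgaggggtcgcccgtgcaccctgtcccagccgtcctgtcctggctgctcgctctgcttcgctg
TYMS: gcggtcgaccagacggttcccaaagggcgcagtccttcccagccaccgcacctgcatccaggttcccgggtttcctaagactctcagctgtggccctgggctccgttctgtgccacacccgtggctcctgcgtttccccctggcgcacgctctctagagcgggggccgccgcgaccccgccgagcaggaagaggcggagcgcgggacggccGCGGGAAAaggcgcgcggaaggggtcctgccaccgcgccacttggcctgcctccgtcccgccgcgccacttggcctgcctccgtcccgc
PPAT: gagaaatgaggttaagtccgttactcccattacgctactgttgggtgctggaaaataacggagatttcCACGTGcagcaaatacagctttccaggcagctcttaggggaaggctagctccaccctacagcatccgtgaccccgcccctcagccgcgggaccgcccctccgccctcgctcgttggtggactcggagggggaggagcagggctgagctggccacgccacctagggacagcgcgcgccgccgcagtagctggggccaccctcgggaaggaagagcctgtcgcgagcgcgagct
NME1: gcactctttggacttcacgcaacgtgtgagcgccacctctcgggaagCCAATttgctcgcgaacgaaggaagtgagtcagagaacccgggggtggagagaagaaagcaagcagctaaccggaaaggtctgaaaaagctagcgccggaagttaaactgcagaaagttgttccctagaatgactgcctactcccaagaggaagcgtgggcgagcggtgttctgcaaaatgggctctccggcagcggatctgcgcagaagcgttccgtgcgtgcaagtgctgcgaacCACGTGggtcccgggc
NME2: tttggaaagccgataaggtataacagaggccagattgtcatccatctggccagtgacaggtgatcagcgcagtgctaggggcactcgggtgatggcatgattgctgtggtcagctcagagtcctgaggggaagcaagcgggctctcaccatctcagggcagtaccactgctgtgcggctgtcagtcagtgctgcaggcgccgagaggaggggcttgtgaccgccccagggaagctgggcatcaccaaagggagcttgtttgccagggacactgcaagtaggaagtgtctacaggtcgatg
RRM2 carries 3 CCAAT boxes, at 123, 93 and 66 bases before the start (leftmost letter), and TYMS 1 E2F site at 39 bases before it, read on the opposite strand. NME1 has an E-box and a CCAAT box, and NME2 has none of the 3 motifs.

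Other enzymes of nucleotide metabolism were called in both directions. Of 48 listed and reported here, 47 were in the table and 32 were tested. Of these 10 were called lower and 13 higher, against 44.8% and 33.5% of all tested genes, the median log2 fold change being 0.0, against -0.06. How this list compares with the 38 enzymes was not tested. CDA, the cytidine deaminase that also inactivates cytarabine, had 55.0, 54.3 and 52.3 after amiodarone, against 18.3, 18.8 and 18.9 in controls (ratio of means 2.89, log2 fold change 1.48, SE 0.0329, limma adjusted p = 3.59e-11). AMPD3, an AMP deaminase, rose 2.1-fold, with 16.6 ± 0.165 after amiodarone and 7.91 ± 0.219 in controls (SD, n = 3 each). NT5C2, the cytosolic IMP and GMP nucleotidase, averaged 67.6 ± 0.452 after amiodarone and 43.9 ± 1.24 in controls (SD, n = 3 each), in a gene that lies opposite CNNM2 over 36.7% of its exonic bases. NME6, a kinase of the NME family, rose 1.54-fold. Of the 4 tested nucleotidases 3 were called higher and 1 lower, and both tested enzymes of pyrimidine breakdown were called higher; with so few genes, and 78.3% of all tested genes called, these counts are not set apart from the background. The breakdown enzymes, named after their values were seen, are DPYD, the rate-limiting dihydropyrimidine dehydrogenase (4.95 ± 0.219 after amiodarone and 2.70 ± 0.184 in controls; SD, n = 3 each), and UPB1 (ratio of means 2.17). UPP1, a uridine phosphorylase also named after its values were seen, had 5.39, 5.20 and 5.94 after amiodarone, against 1.95, 1.72 and 2.84 in controls.

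Enzymes of this wider list that were called lower included all 4 of nucleotide pool cleaning, against 44.8% of all tested genes. The median of these 4 was -0.25. DCTPP1, which hydrolyses dCTP and modified forms of it, averaged 39.9 ± 1.4 after amiodarone and 83.4 ± 0.539 in controls (SD, n = 3 each; log2 fold change -1.04), and 42.1% of its exonic bases lie opposite ZNF771. NME4, the mitochondrial nucleoside diphosphate kinase, had a log2 fold change of -0.79, and MTAP, which returns methylthioadenosine to the adenine pool, one of -0.58. ADSS1, an adenylosuccinate synthase on the way to AMP, averaged 1.73 ± 0.328 after amiodarone and 3.63 ± 0.463 in controls (SD, n = 3 each; log2 fold change -0.77). Folate enzymes, which supply the carbon units for purine and thymidylate synthesis, moved both ways. The cytosolic MTHFD1 averaged 15 ± 0.222 after amiodarone and 28.8 ± 0.693 in controls (SD, n = 3 each; log2 fold change -0.90). The cytosolic SHMT1 had a log2 fold change of -0.84, the mitochondrial MTHFD1L one of -0.29 and FPGS one of -0.23. The mitochondrial MTHFD2 rose 1.48-fold, in a gene with 27.2% of its exonic bases opposite SLC4A5. Of the 7 tested folate genes 4 were lower, 1 higher and 2 not called, with a median of -0.23, against the same shares of all tested genes (44.8% lower and 33.5% higher).

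**Figure D4:**
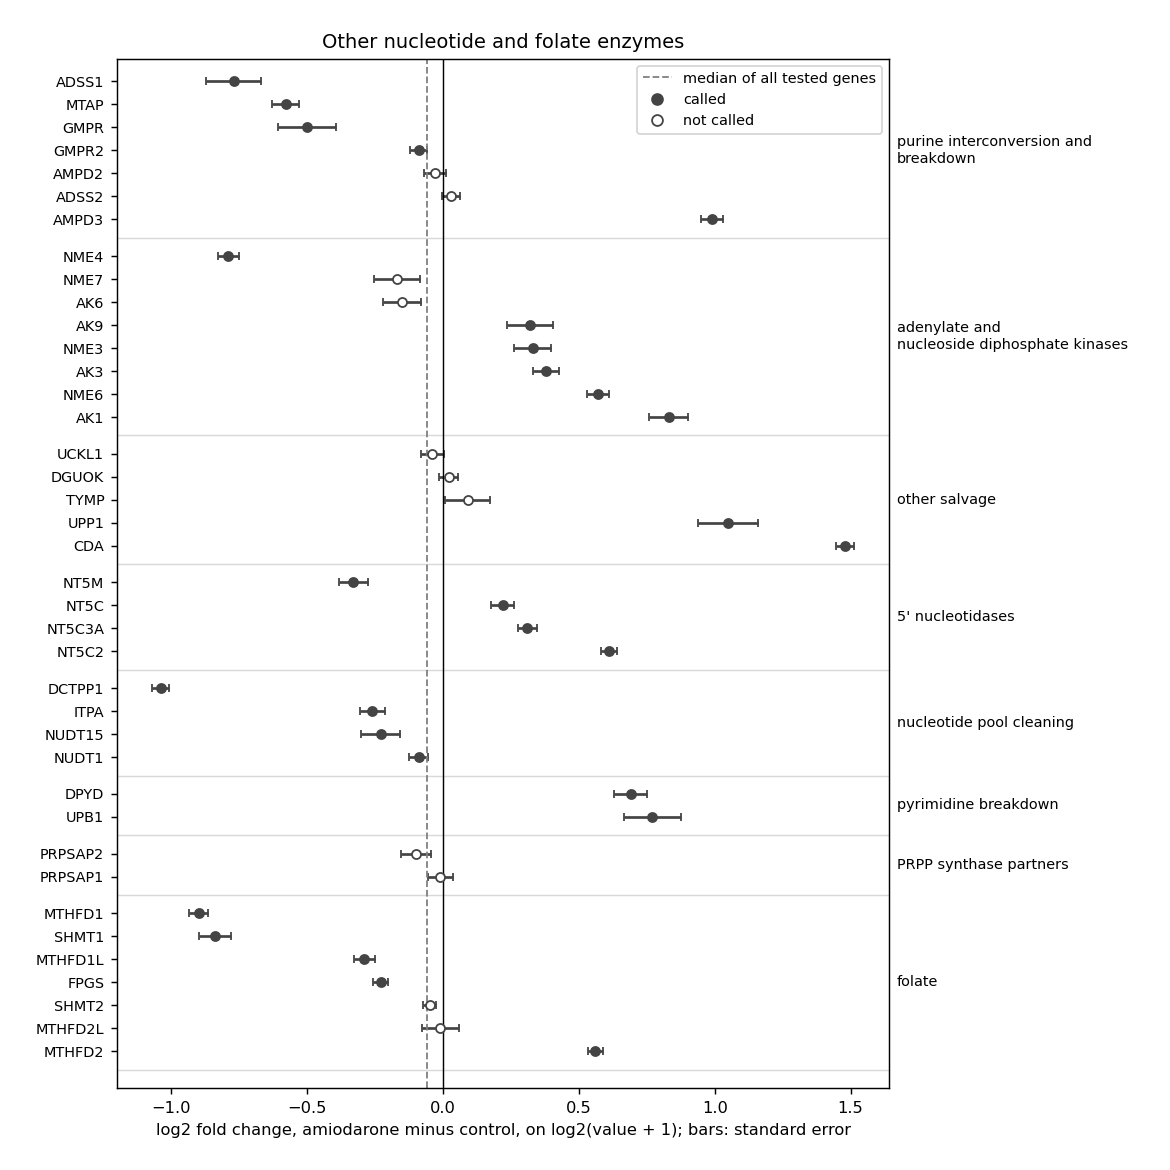
Log2 fold change (amiodarone minus control, on log2(value + 1)) with its standard error of tested nucleotide enzymes outside the 38 and of folate enzymes, grouped by role; filled points were called, and the dashed line is the median of all tested genes. CDA, UPP1 and AMPD3 lie farthest right, and DCTPP1, MTHFD1 and SHMT1 farthest left.

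Replication fork genes were mostly lower too. Of 34 tested, 32 were called lower and 1 higher, against 44.8% and 33.5% of all tested genes. Those lower by at least 2-fold numbered 20 of 34, against 2.6% of all tested genes, and the median was -1.08, against -0.06. The clamp PCNA had 55.6, 55.1 and 55.3 after amiodarone, against 205, 204 and 194 in controls. Their part in the lower nucleotide enzymes was not tested. Of 6 promyelocyte markers, 5 were called lower, against 44.8% of all tested genes, and CD33 was not called. Their summed level was 2990 to 3060 after amiodarone and 6840 to 6960 in controls. Most of it was MPO, which averaged 2610 after amiodarone and 5960 in controls. All 3 monocyte or macrophage markers, CD14, CSF1R and CD163, were below the filter and untested, with sums of 1.93 to 2.36 after amiodarone and 1.23 to 1.74 in controls. The members differed in direction within these sums. CD163 was at 0.76, 0.83 and 0.77 after amiodarone, against 0.05 in every control, and CD14 averaged 0.793 after amiodarone and 0.347 in controls. CSF1R averaged 0.557 after amiodarone and 1.09 in controls. Markers of T cells, megakaryocytes, fibroblasts and erythroid cells summed to 3 or less per type in every library, and those of B cells to 9.15 to 9.91 after amiodarone and 11.4 to 12 in controls, most of it CD79A. The part of these markers in the results was not tested.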

How the data were processed

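The 6 HL-60 libraries were prepared for stranded mRNA sequencing, per the labels' protocols. Tools in the submitters' processing notes are STAR 2.5.3a and featureCounts, besides fastp 0.23.4, and the build is GRCh38.p12; their roles are not given. The deposited table gives 1 expression value per gene and library. Its unit is not named per the file headers, and the deposited values behave like RPKM. Sums of values ran from 534486 to 539030 in the control libraries and from 568654 to 574483 in the amiodarone libraries. The scale of a library thus differed with the treatment. No counts are given, so the depth is only estimated, from the steps between low values. For each library many depths were scanned, and the depth putting most low values of short genes near whole steps was kept. At the depth kept, 45.3% to 55.9% of these values lay within 0.15 of a whole step. That share is the highest of a scan, so the estimate is rough.

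Values were used as deposited. The 11445 genes that reached 1 in 3 or more libraries (6466 did not) were tested with limma 3.58.1 in R 4.3.3 (eBayes with trend) on log2(value + 1), which understates changes of low genes, with Benjamini-Hochberg adjustment over all of them. The fit was also tested on simulated data with known changes. Paralogue ratios were compared with an exact permutation test. The members, routes, other lists and the naming rule were chosen with earlier results of these data known. The rule gives by library the enzymes lower by at least 2-fold, those called higher and both genes of each pair, and up to 4 other nucleotide and 4 folate genes per direction by adjusted p. Positions and overlaps come from GENCODE 29, by Ensembl ID. ADSS1 and ADSS2 were found under older symbols. NT5C1A, MS4A1, HBB and COL1A2 were not analysed here. Some genes of the wider lists are not reported here, and counts and medians of those lists are without them. At most 0.75% of tested genes had identical values in 2 libraries.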

Additional observations from a re-analysis of the deposited data

How the results depend on the processing

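Each of the 37 tested enzymes was refitted under 13 alternatives, which gave 479 values. In 470 of them the direction and the side of the threshold were those reported, and this held for 33 enzymes under every alternative. The 31 enzymes called lower numbered 31 or 32 throughout. The number called higher was 1 at a minimum value of 5, where RRM2B was not tested, and 5 with scaling by the median of ratios, where TK2, ADK and DCTD were called; leaving out 1 library gave 2 to 3. DCTD turned to -0.01 and ADK to -0.035 with scaling to equal sums, neither called, and NME2 was then called lower (-0.15). NME2 was also called lower without amiodarone replicate 1 (-0.092), TK2 higher without amiodarone replicate 1 (0.18) and DCTD higher without control replicate 1 (0.10).

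The median of all enzymes was -0.56 with no filter on low values, -0.67 at a minimum value of 5, -0.55 with scaling by the median of ratios and -0.68 with scaling to equal sums. De novo enzymes had -0.56, with no filter, and -0.55 and -0.68 under the 2 scalings; salvage enzymes -0.46 at a minimum value of 5, and -0.35 and -0.48 under the scalings; shared enzymes -0.63 and -0.75 under the scalings, and -0.69 to -0.63 when 1 library was left out. Deoxynucleotide enzymes had -0.90 at a pseudocount of 0.1 and -0.87 with scaling to equal sums. The RRM2 to RRM2B log2 ratio differed by -1.71 with 1 added to each value. Same-numbered libraries did not visibly deviate together (correlations of -0.155, -0.018 and -0.023). Differently numbered ones gave -0.097 to 0.114. With 3 libraries a group, these values cannot exclude a pairing by number. With a replicate block 8770 of all genes were called, against 8959, and 31 enzymes were again called lower and 2 higher. CTPS2 was too low to compare at this depth. The cause of these shifts was not tested.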
